A study of Mus musculus with 18 samples.

Results

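The circRNA lists of the mouse fibroblast line NIH/3T3, which derives from embryos, held 13 circles that began and ended inside Specc1 or Wwc1, of 16171 circRNAs listed in all. Specc1 (ENSMUSG00000042331.13, chr11:61956763-62223013, plus strand, GRCm38) held 10 of them and Wwc1 (ENSMUSG00000018849.6, chr11:35838400-35980527, minus strand) held 3. A circle was counted as a member where both its ends lay inside the gene's span, whatever its reads. The ends of all 13 fell on edges of annotated exons, as did those of 9644 of 9648 circRNAs listed in the cytoplasm and 10699 of 10700 in the whole cell. The small genes Gm12274 and ENSMUSG00000118644.1 overlap Specc1, and none of the 10 circles lay inside them.

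The study compared wild-type (WT) cells with a cell line in which XPO4, a nuclear export and import receptor, was knocked out (KO) by CRISPR-Cas9, both gene copies carrying the same edit, so that 1 edited line stands for the knockout. No treatment or time point separated the groups. RNase R, which digests linear RNA, was applied before circRNA sequencing of nuclear, cytoplasmic and whole-cell RNA, with 2 libraries per genotype in each fraction. The host genes were followed in mRNA sequencing of 3 further libraries per genotype, and nothing says that libraries of a group came from separate cultures, so the tests below measure only the spread between these libraries.

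Specc1 encodes cytospin-B, a coiled-coil protein with a calponin homology domain, whose paralog Specc1l cross-links actin filaments and microtubules. Wwc1 encodes KIBRA, a WW-domain scaffold that acts upstream of the Hippo kinases and binds atypical protein kinase C. Exonic circRNAs form when the spliceosome joins the end of a downstream exon back to the start of an upstream exon, and the read across that backsplice junction is what the circRNA lists count.

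The circles of Specc1 were numbered by the 15 exons of transcript Specc1-217 and those of Wwc1 by the 23 exons of transcript ENSMUST00000018993.6. Thus circSpecc1 8-12 is the circle that runs from the start of exon 8 to the end of exon 12. Of the Specc1 circles, 4 closed at the end of exon 12 (chr11:62161910) and differed only in the exon they joined it to, namely exon 8, 9, 10 or 11. Sites used by at least 4 circles were 2.28% of the 23427 distinct circle ends in the series. The junctions of these circles are shown because their shared left part and their different right parts are what tells the isoforms apart, and each is given as 15 bases of the donor exon in lower case and 15 bases of the acceptor exon in capitals, 5′ to 3′ on the plus strand of GRCm38.
circSpecc1 8-12: acagaaggttatgcgACCTGTGAATGAAGA
circSpecc1 9-12: acagaaggttatgcgGTGGAACTGGCCAGA
circSpecc1 10-12: acagaaggttatgcgAGACATTCAACATAC
circSpecc1 11-12: acagaaggttatgcgATCTGCTGAAGGGAA
circSpecc1 8-11: gccaagcaagctcagACCTGTGAATGAAGA

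These circles lay at chr11:62146306-62161910 for 8-12, chr11:62147568-62161910 for 9-12, chr11:62151870-62161910 for 10-12, chr11:62156487-62161910 for 11-12 and chr11:62146306-62156640 for 8-11. circSpecc1 8-11 shares the acceptor side of 8-12, so that both start with the same 15 bases of exon 8. A further circle inside the same exons, circSpecc1 10-11, lay at chr11:62151870-62156640. The remaining 4 began further upstream. They were circSpecc1 2-3 at chr11:62029253-62043075, which holds 23 bases of 5′ UTR before the start codon, the single-exon circSpecc1 4 at chr11:62117700-62119282, circSpecc1 4-7 at chr11:62117700-62132454, which ends at the shorter form of exon 7 of Specc1-212, and circSpecc1 5-9 at chr11:62128200-62147668.

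The Wwc1 junctions are shown because 2 of the 3 circles use exon 18 in opposite roles, as the donor of circWwc1 16-18 and as the acceptor of circWwc1 18-19. They are written 5′ to 3′ on the minus strand of GRCm38 with the same use of capitals.
circWwc1 18-19: cagtatgtgtgtcggGACGTACGAGGAAGA
circWwc1 16-18: tgcccagcattaaagGGAGGTGCCCAGATC
circWwc1 2-3: gctcccaggttagctGTACACCAAACCACT

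They lay at chr11:35852194-35853477 for 18-19, chr11:35853360-35861949 for 16-18 and chr11:35910176-35915285 for 2-3. Apart from the UTR bases of circSpecc1 2-3, the other 12 circles were made of coding exons throughout.

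**Figure D1:**
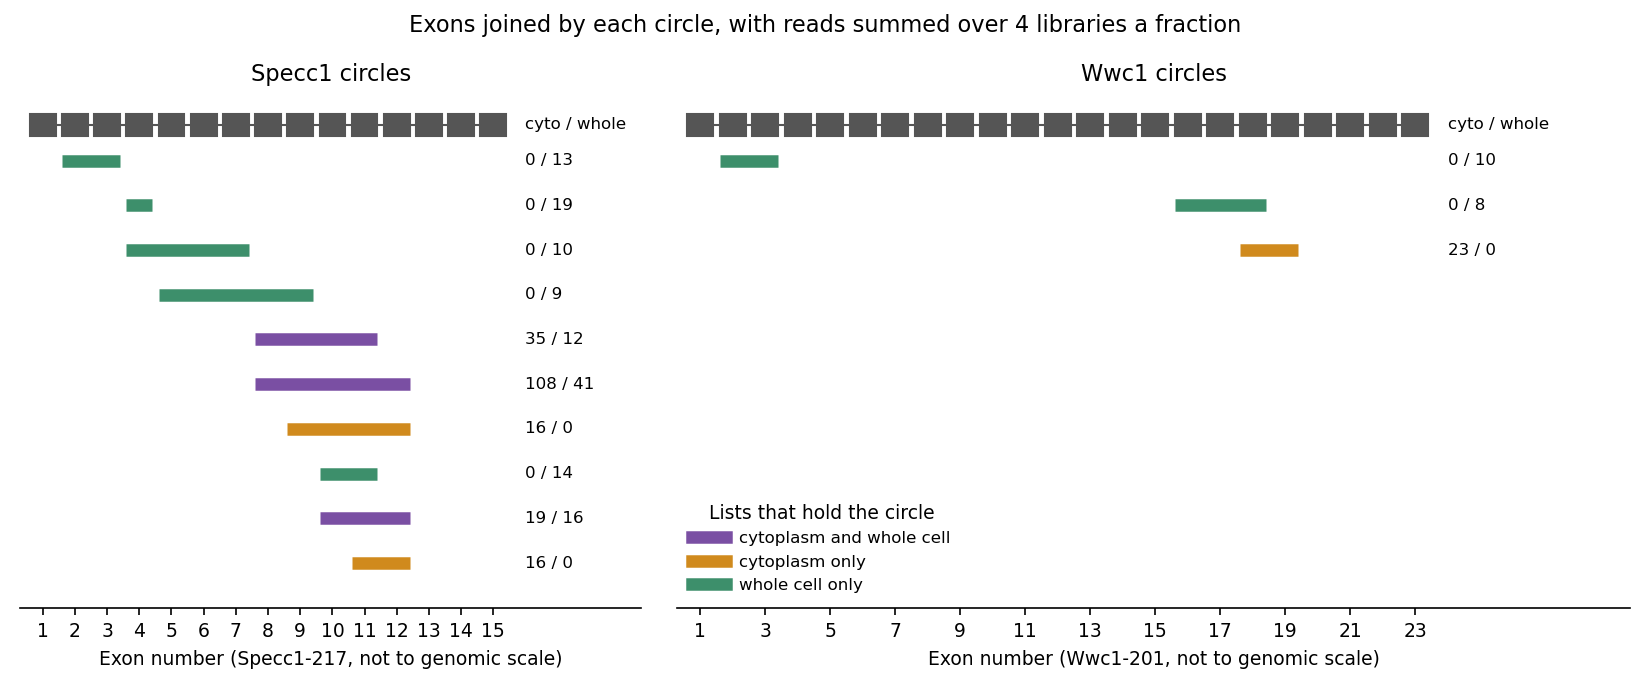
Exons of Specc1-217 (left) and of Wwc1 (right) as grey boxes along an axis of exon numbers, with 1 bar per circle from its first to its last exon and the reads in the 4 cytoplasmic and 4 whole-cell libraries written beside it, purple where both fractions list the circle, orange for the cytoplasm alone and green for the whole cell alone. The 5 Specc1 circles listed in the cytoplasm all lie in exons 8 to 12, with 108 reads for 8-12, and no Wwc1 circle is listed in both fractions.

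Spliced, circSpecc1 8-12 had 586 nt from 5 exons, and the members ranged from 236 nt in circSpecc1 10-11 to 2044 nt in circSpecc1 4-7. Their median length was 351 nt, against 517.5 nt over the 15426 circles with both ends in 1 annotated transcript. The GC content of the spliced sequence had a median of 57.8% against 48.0% over all circles, and 10 of the 13 members lay above the upper quartile of all circles, 52.4%. The intron after exon 12, which the 4 circles ending there share, measured 43473 bp, against a median downstream intron of 4479 bp. All 13 were flanked by AG before the acceptor and GT after the donor. Within 1000 bases of flanking intron on each side, the longest exact stretch that could pair with its reverse complement was 9 to 12 bases in 12 members, around the median of 10 over all circles. In circSpecc1 10-11 it was 46 bases, a length reached by 0.396% of all circles. Circles of 1 gene share exons and introns, so these values are not independent of each other.

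Specc1 was rich in circles for a host gene. Its 10 circles and 328 reads over the 12 circRNA libraries were reached or passed by 5.62% and 5.99% of the 5143 host genes, whose medians were 2 circles and 40 reads. Wwc1, with 3 circles and 41 reads, lay near the middle, since 40.0% of host genes had at least as many circles and 49.6% at least as many reads.

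The lists carry marks of how they were made. Library totals ran from 2189 to 4383 junction reads for nuclear RNA and from 50341 to 81941 for cytoplasmic and whole-cell RNA, and the mRNA libraries held between 16974062 and 22057323 counted reads. No circRNA was listed in only 1 of the 4 libraries of a fraction, so that a circle that is not listed may have had reads. The heading inside each mRNA file names a library of the other genotype; the sample titles were followed, and the mRNA libraries are called by their titles. Following the headings instead would swap the mRNA groups as a whole and turn the sign of every mRNA difference given below, without changing its size or its p. Xpo4 itself did not settle this, with 657, 614 and 685 reads in the libraries titled WT and 712, 504 and 687 in those titled KO (log2 fold change 0.18 ± 0.11 SE, edgeR quasi-likelihood test, adjusted p = 0.193, and 0.34 with adjusted p = 0.000252 without KO mRNA replicate 2). The summed mRNA level of 9 fibroblast markers was 23063 to 24660 CPM (reads scaled to libraries of one common size) in WT and 21294 to 23926 in KO. Of the 9, 6 were called as higher and 2 as lower in KO, beside 25.1% and 23.6% of all 14688 genes tested. The summed level of 3 leukocyte markers was 9.99 to 12.5 in WT and 4.71 to 5.64 in KO, and that of 3 endothelial and 4 epithelial markers was below 1 in every library, with 2 of the epithelial genes at 0. Of the leukocyte markers 2 were tested and both fell, and whether these genes bear on the results below was not tested.

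No circle of Specc1 or Wwc1 was listed in any of the 4 nuclear libraries. The nuclear lists were shallow for these genes. At the share of junction reads that Specc1 had in the cytoplasm, 3.77 reads would have fallen into both WT nuclear libraries together and 4.92 into both KO libraries. For Wwc1 the corresponding figures were 0.0906 and 1.43 reads. Among the 688 host genes within 2-fold of Specc1 in cytoplasmic reads, 264 (38.4%) had a nuclear read. The study followed the Nuc/Cyto ratio to ask whether circRNAs stay in the nucleus without XPO4. From these lists that ratio could not be estimated for either gene in either genotype. By imaging (fluorescence in situ hybridization), the paper reports higher nuclear signal and Nuc/Cyto ratio of circSpecc1 and circWwc1 in KO cells, a measure other than junction reads. Its probes lay across a backsplice junction, and its text does not say which of the circles listed here these names stand for. From the same sequencing, the paper reports higher nuclear and lower cytoplasmic levels of exonic circRNAs in KO cells, compared over circRNAs together. Gene by gene, edgeR called 0 of 3904 host genes for a difference of the Nuc/Cyto ratio between genotypes. There were 163 at an unadjusted p under 0.05, and DESeq2 called 2. With library totals as the only scaling, edgeR called 19. Only 564 host genes had enough nuclear reads to be tested in the nucleus alone. For most of the 3904 the lists could thus hardly show a change of the ratio.

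In the cytoplasm, the sum of Specc1 circles was not told apart between genotypes, while Wwc1 had more circle reads in KO. Summed over its circles, Specc1 had 73 and 52 reads in the WT cytoplasmic libraries and 32 and 37 in the KO libraries. Per 10000 junction reads that was 9.38 and 6.35 in WT and 6.32 and 5.84 in KO. WT replicate 1 stood above the other 3, which lay close together. The log2 fold change of KO over WT was -0.38 ± 0.35 (SE, edgeR, adjusted p = 0.388), beside 45.8% of 3774 host genes called in either direction. It lay between -0.82 and -0.11 with 1 library left out in turn.

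Wwc1 had 3 and 0 reads in the WT cytoplasmic libraries and 10 and 10 in the KO libraries, all of them from circWwc1 18-19. On its WT reads alone that circle would have missed the 10-read floor and the rule of the lists. The test below therefore rests on a circle that entered through KO, where it is high. No whole-cell library listed it. Per 10000 junction reads the level of Wwc1 was 0.193 ± 0.273 in WT and 1.78 ± 0.280 in KO (SD, n = 2). The KO libraries were both higher than either WT library, as they were for 37.5% of host genes tested. From 3 WT reads the ratio of KO to WT is only loosely fixed, at 9.35 with a counting interval of 2.77 to 49.1 (exact conditional binomial, 95%). The log2 fold change of the sum was 3.11 ± 0.68 (edgeR, adjusted p = 0.00581), beside 25.4% of host genes called as higher in KO. It was 6.52 without WT replicate 1 and 1.95 without WT replicate 2, both past the threshold. With no scaling of the libraries the adjusted p was 0.0880 and with DESeq2 0.0835. In bulk RNA, fewer circles in each cell and fewer cells that hold them cannot be told apart, here and in the results that follow.

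**Figure D2:**
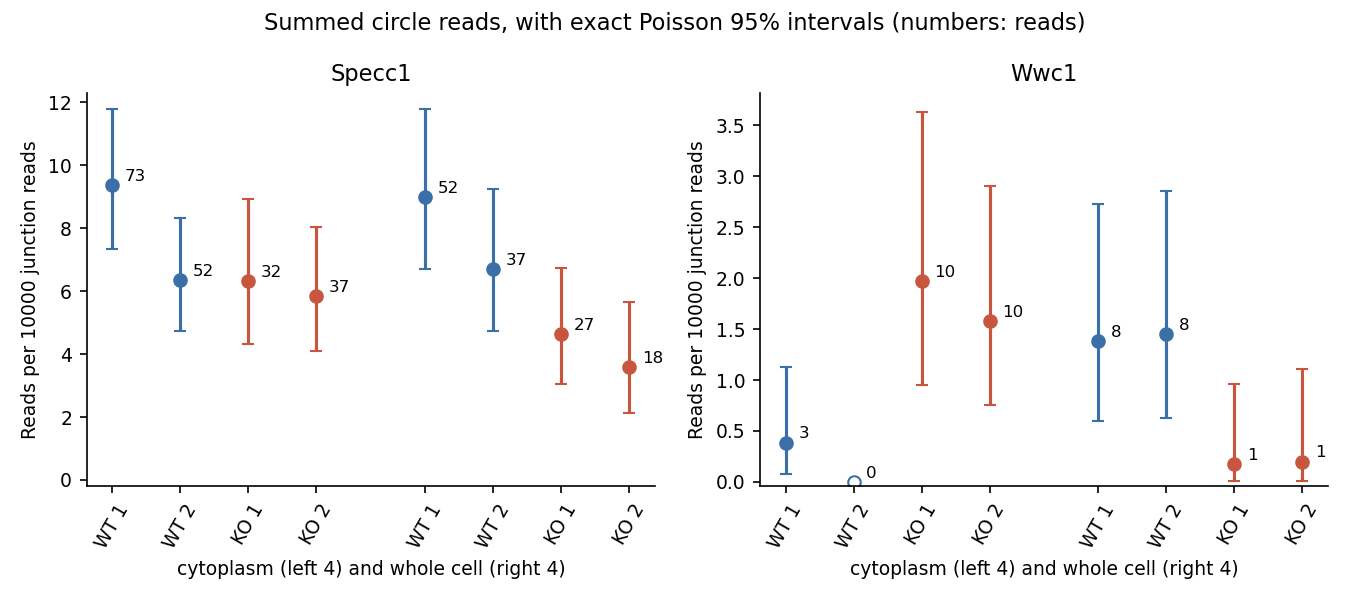
Reads of all circles of Specc1 (left) and Wwc1 (right) per 10000 junction reads in each cytoplasmic and whole-cell library, WT in blue and KO in red, with exact Poisson 95% intervals that cover counting error only and the reads written beside each point. The open point marks the WT cytoplasmic library with no Wwc1 read; Wwc1 is higher in KO on the left and lower in KO on the right.

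In whole-cell RNA the sums of both genes were lower in KO, by a test that passed the threshold for Wwc1 only. Specc1 had 52 and 37 reads in the WT libraries against 27 and 18 in KO, or 9.0 and 6.71 against 4.64 and 3.58 per 10000. The KO libraries were both lower than either WT library, as they were for 32.3% of the 3701 host genes tested. The log2 fold change was -0.99 ± 0.33 (edgeR, adjusted p = 0.0850). It passed the threshold when the library totals replaced the TMM scaling (adjusted p = 0.0428) and with a replicate block (0.0290). It missed the threshold with no scaling (0.177) and with DESeq2 (0.573), and lay between -1.21 and -0.61 with 1 library left out.

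Wwc1 had 8 and 8 whole-cell reads in the WT libraries against 1 and 1 in KO, in equal numbers within each genotype. The WT reads were divided evenly between circWwc1 2-3 and circWwc1 16-18, with 4 reads of each in either library, while both KO reads came from circWwc1 2-3. Thus circWwc1 16-18 was listed through WT alone, the group where the sum is high. The ratio of WT to KO was 7.69 with a counting interval of 1.81 to 68.9. The log2 fold change was -2.86 ± 0.56 (edgeR, adjusted p = 0.0382), beside 7.73% of host genes called. The call did not hold without KO replicate 1 (adjusted p = 0.106), without KO replicate 2 (0.136), with no scaling (0.122) or with DESeq2 (0.573), where the direction was the same.

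The KO minus WT difference of the Wwc1 sum was itself different between the fractions, by 5.92 ± 0.96 on the log2 scale (edgeR interaction term, adjusted p = 0.00193, beside 16.2% of 4654 host genes). Without KO whole-cell replicate 2 the adjusted p was 0.0503, and without WT cytoplasmic replicate 1 the difference was 9.20. The fractions listed different circles of Wwc1, 18-19 in the cytoplasm and 2-3 and 16-18 in the whole cell, so the term sets unlike isoforms against each other. For Specc1 the interaction was 0.56 ± 0.49 (edgeR, adjusted p = 0.652).

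In the cytoplasm all 194 Specc1 reads came from the 5 circles inside exons 8 to 12 named above with their junctions. In whole-cell RNA 83 of 134 reads came from 4 circles inside those exons, and the other 51 from the 4 circles that begin before exon 8, although the whole-cell libraries together held fewer junction reads (221395 against 273723). Only 3 Specc1 circles, 8-11, 8-12 and 10-12, were listed in both fractions. That was 30.0% of the gene's circles, near the 30.9% of all 15545 circles listed in either fraction over the series.

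circSpecc1 8-12 was the leading circle, with 149 of the 328 Specc1 reads. In the cytoplasm it had 53 and 16 reads in the WT libraries against 18 and 21 in KO. The WT libraries thus differed from each other by more than KO from WT. As a share of all Specc1 reads the circle took 72.6% (exact binomial 95% interval 60.9 to 82.4) and 30.8% (18.7 to 45.1) in WT and 56.3% (37.7 to 73.6) and 56.8% (39.5 to 72.9) in KO. The intervals of the WT libraries, which cover counting error only, did not overlap. KO minus WT was 4.82 percentage points (two-sided exact permutation test over libraries, p = 1), where 2 against 2 libraries cannot give a p below 0.333. It was 25.7 points without WT replicate 1 and -16.1 without WT replicate 2.

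**Figure D3:**
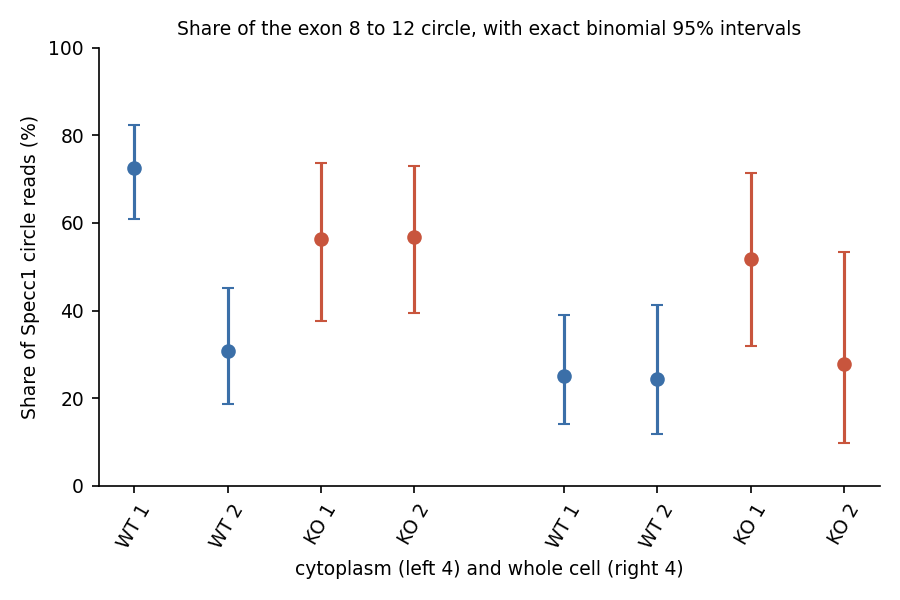
Share of Specc1 circle reads taken by circSpecc1 8-12 in each cytoplasmic and whole-cell library (percent), WT in blue and KO in red, with exact binomial 95% intervals. WT cytoplasmic replicates 1 and 2 lie at 72.6% and 30.8%, on both sides of the KO libraries, and both WT whole-cell libraries lie near 25%.

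In whole-cell RNA circSpecc1 8-12 had 13 and 9 reads in the WT libraries against 14 and 5 in KO. Its share was 25% and 24.3% in WT and 51.9% and 27.8% in KO, a difference of 15.2 percentage points (two-sided exact permutation test, p = 0.333). The KO libraries rested on only 27 and 18 Specc1 reads, and the difference was 3.12 points without KO replicate 1. The leading circle of Wwc1, circWwc1 18-19, made up all reads of the gene in both KO cytoplasmic libraries, and no other library reached 10 reads, so its share was not compared.

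The fold change of circSpecc1 8-12 itself was small beside its error. Its log2 value was -0.33 ± 0.71 in the cytoplasm (edgeR, adjusted p = 0.706), which turned to 0.65 without WT replicate 1, and -0.16 ± 0.56 in the whole cell (adjusted p = 0.847), which turned to 0.73 without KO replicate 2. No direction could be given for the most abundant circle of the gene.

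Of the 6 members tested singly in the cytoplasm, 1 passed the threshold, circWwc1 18-19 (log2 fold change 3.16 ± 0.67, edgeR, adjusted p = 0.000893), beside 53.5% of 8917 circRNAs called in either direction and 30.0% called as higher in KO. On its WT reads alone, 3 and 0, this circle would have missed the 10-read floor and, with reads in 1 library, the lists. It was thus tested only through KO, the group where it is high. The log2 fold change was 6.47 without WT replicate 1 and 1.56 without WT replicate 2. The adjusted p was 0.174 without KO replicate 1, 0.0864 without WT replicate 2 and 0.0906 with no scaling. The shorter circles ending at exon 12 had fewer reads in KO. circSpecc1 9-12 had 4 and 9 reads in the WT libraries against 2 and 1 in KO. circSpecc1 11-12 had 5 and 8 in WT against 0 and 3 in KO, and circSpecc1 10-12 had 7 and 7 in WT against 2 and 3 in KO. In these 3 circles the KO libraries were both lower than either WT library per 10000 junction reads, as they were for 44.1% of all circRNAs tested in the cytoplasm. With 3, 3 and 5 KO reads in the order named, these circles reached the 10-read floor through WT, the group where they are high. Their log2 fold changes were -1.51, -1.51 and -0.91 (edgeR, adjusted p = 0.0959, 0.0959 and 0.248), and each moved by over 1.5 times with 1 library left out. circSpecc1 9-12 ranged from -2.13 to -0.62 (adjusted p = 0.0283 without WT replicate 1 and 0.653 without KO replicate 2). circSpecc1 11-12 ranged from -5.46 without KO replicate 2 to -0.17 without KO replicate 1 (adjusted p = 0.0575 and 0.892, and 0.0489 without WT replicate 1). circSpecc1 10-12 ranged from -1.57 without WT replicate 2 to -0.28 without KO replicate 1. With 3 KO reads in each of circSpecc1 9-12 and 11-12, the ratio of WT to KO was 3.09 in both, with a counting interval of 0.849 to 16.9.

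circSpecc1 8-11 leaves out exon 12. In the cytoplasm it had 4 and 12 reads in the WT libraries against 10 and 9 in KO, with overlapping libraries and a log2 fold change of 0.79 ± 0.50 (edgeR, adjusted p = 0.182) that was 0.038 without WT replicate 1 and 1.37 without KO replicate 2. In whole-cell RNA the same circle had 8 and 3 reads in the WT libraries against 1 and 0 in KO (log2 fold change -3.12 ± 0.98, adjusted p = 0.0612), a ratio of WT to KO of 10.6 with a counting interval of 1.54 to 455. The fitted value was -5.36 without KO replicate 1 and -1.96 without KO replicate 2 (edgeR, adjusted p = 0.101 and 0.469), and the test passed with library totals in place of TMM (0.0216). The difference between the fractions was 3.90 ± 1.14 (edgeR interaction term, adjusted p = 0.0309), beside 7.44% of 13729 circRNAs called. It was not past the threshold without KO whole-cell replicate 1 (6.29, adjusted p = 0.253) or 2 (2.90, 0.401), without WT whole-cell replicate 1 (0.311) or without WT cytoplasmic replicate 1 (0.0693), nor with no scaling (0.423) or DESeq2 (0.176). The same term was 2.65 ± 1.21 for circSpecc1 10-12 (adjusted p = 0.343) and -0.17 ± 0.95 for circSpecc1 8-12 (adjusted p = 1.00).

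**Figure D4:**
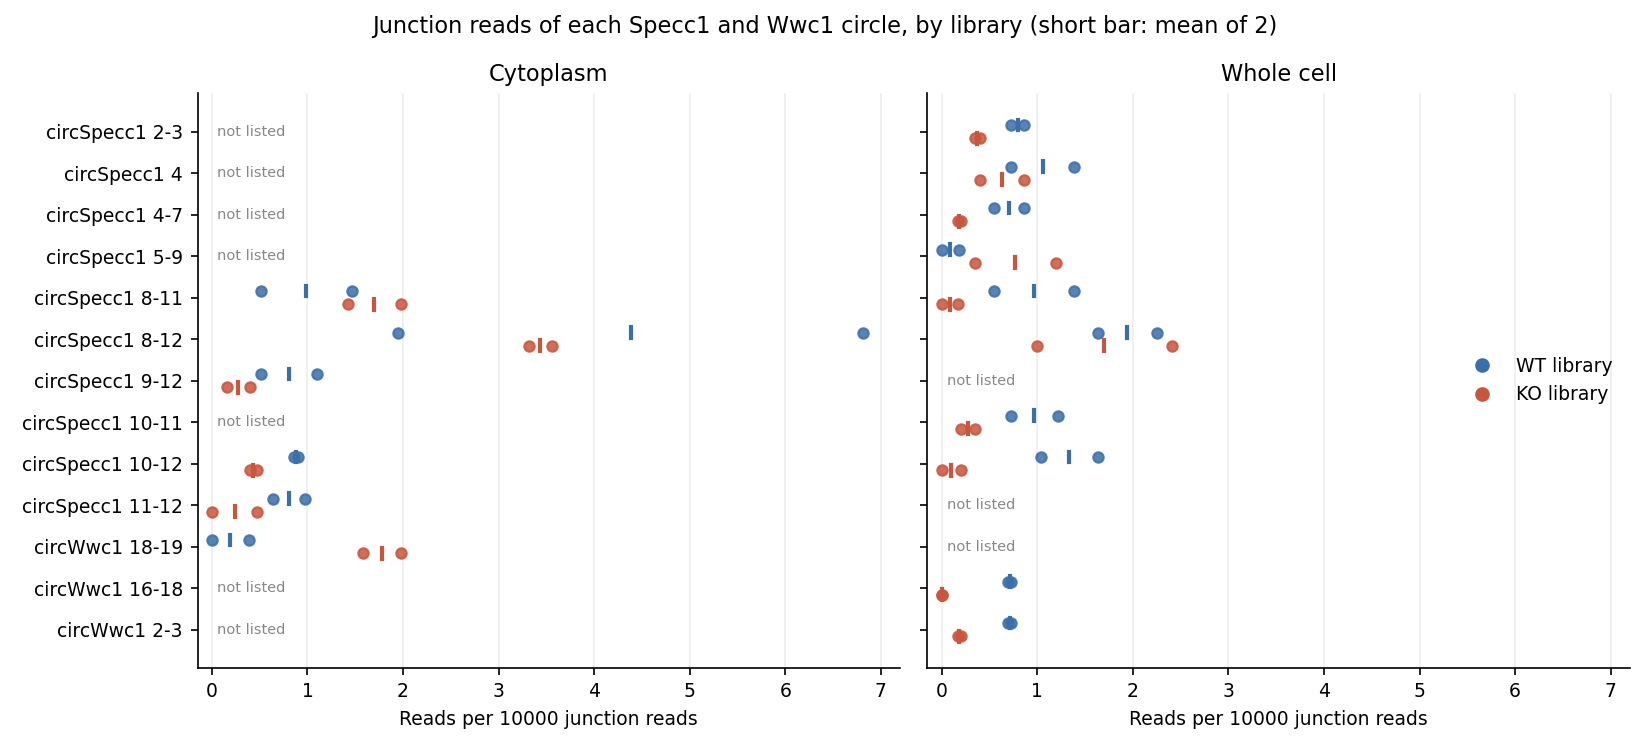
Reads of each circle per 10000 junction reads in the cytoplasmic (left) and whole-cell (right) libraries, 1 point per library, WT in blue and KO in red, with a short bar at the mean of 2; grey text marks circles that a fraction's lists do not hold. circWwc1 18-19 lies higher in both KO cytoplasmic libraries, and most whole-cell circles lie lower in KO.

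Of the 8 members tested singly in whole-cell RNA, none passed the threshold (edgeR, 280 of 8903 circRNAs called, 3.15%). All 8 log2 fold changes were below 0, from -3.56 to -0.16 with a median of -1.78, and over all circRNAs 51.1% were below 0 with a median of -0.07. That count depends on the 10-read floor, since circSpecc1 5-9, with 1 WT and 8 KO reads, fell under it. Only circSpecc1 8-12, with 19 KO reads, would have reached the floor on its KO reads. Every other member tested here had between 1 and 7 KO reads and reached the floor with its WT reads, the group where it is high. The signs, and the absence of overlap given next, are thus shaped by the floor and are no separate evidence of a direction. In 6 of the 8 the KO libraries were both lower than either WT library, beside 36.8% of all circRNAs tested. The members share libraries and, for 7 of them, the gene, so they are not separate replicates of the difference. At an unadjusted p under 0.05 there were 3 of the 8, near the 38.5% of all circRNAs. DESeq2 called none and gave these 3 no adjusted p. circSpecc1 10-12 came nearest to the threshold, with 6 and 9 reads in the WT libraries against 0 and 1 in KO (log2 fold change -3.56 ± 0.86, edgeR, adjusted p = 0.0551). From 1 KO read the ratio of WT to KO was 14.4 with a counting interval of 2.22 to 607. The test passed without WT replicate 1 (adjusted p = 0.00356) and with the library totals in place of TMM (0.00486). Without KO replicate 1 the value was -2.33 (0.186) and without KO replicate 2 it was -5.81 (0.270).

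circSpecc1 10-11, the circle with the long pairing stretch in its flanks, had 7 and 4 whole-cell reads in the WT libraries against 2 and 1 in KO (log2 fold change -1.74 ± 0.68, edgeR, adjusted p = 0.103), a ratio of WT to KO of 3.52 with a counting interval of 0.931 to 19.7. Upstream, circSpecc1 2-3 had 5 and 4 reads in the WT libraries against 2 and 2 in KO, and circSpecc1 4-7 had 5 and 3 in WT against 1 and 1 in KO, without overlap in either. The single-exon circSpecc1 4 had 8 and 4 reads in the WT libraries against 5 and 2 in KO, with overlapping libraries. circSpecc1 5-9 and circWwc1 16-18 had fewer than 10 reads over the 4 whole-cell libraries and were not tested. circSpecc1 5-9 was the only whole-cell member with more reads in KO, 2 and 6 against 0 and 1 in WT, and its ratio of KO to WT was 8.32 with a counting interval of 1.12 to 369. circWwc1 16-18 had 4 and 4 reads in WT and was not listed in either KO library.

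The linear host RNA of Specc1 was lower in the mRNA libraries titled KO, and that of Wwc1 was not told apart from WT. Specc1 had 1079, 1043 and 1246 reads in the WT libraries against 848, 757 and 822 in KO. Its level was 54.7 ± 1.59 CPM in WT and 46.1 ± 3.36 in KO (SD, n = 3), with every KO library below every WT library. The log2 fold change was -0.25 ± 0.07 (edgeR, adjusted p = 0.00723), which held in all 10 alternatives, beside 48.7% of 14688 genes called in either direction. Wwc1 had 399, 393 and 492 reads in the WT libraries against 377, 399 and 485 in KO, or 20.8 ± 1.28 and 24.0 ± 4.0 CPM. Its log2 fold change was 0.20 ± 0.11 (edgeR, adjusted p = 0.146, and 0.0443 without KO replicate 2). Per kilobase of exon both messages were near each other in WT, with an RPKM of 3.69 for Specc1 and 4.20 for Wwc1.

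Both paralogs rose in the libraries titled KO. Specc1l, the actin and microtubule cross-linker, was at 87.8 ± 4.55 CPM in WT and 120 ± 12.3 in KO (log2 fold change 0.45 ± 0.07, edgeR, adjusted p = 0.000206). Wwc2, which like KIBRA acts on the Hippo kinases, was at 84.5 ± 4.68 and 125 ± 11.1 (log2 fold change 0.57 ± 0.07, adjusted p = 1.64e-05). Their own circle sums did not pass the threshold. Specc1l circles had 15 and 20 reads in the WT cytoplasm and 13 and 13 in KO (log2 fold change 0.06 ± 0.31, adjusted p = 0.910), and Wwc2 circles had 38 and 10 in WT against 12 and 21 in KO (-0.08 ± 0.56, adjusted p = 0.921).

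**Figure D5:**
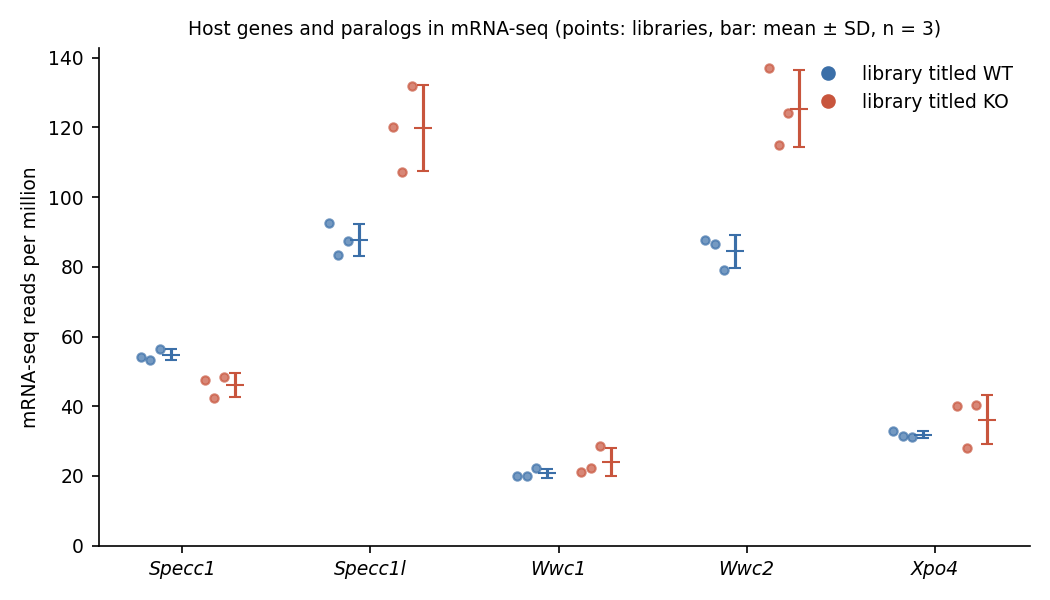
Level in mRNA-seq (CPM) for Specc1, Wwc1, their paralogs Specc1l and Wwc2, and Xpo4, 1 point per library, in the libraries titled WT (blue) and KO (red), with mean ± SD of 3. Specc1 is lower and both paralogs are higher in every library titled KO.

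In the pathway around KIBRA, mRNA of Hippo genes was called in both directions at about the rate of all genes. Of 26 core genes and regulators tested, 8 rose and 5 fell (edgeR), beside 25.1% of all genes called as higher and 23.6% as lower, with a median log2 fold change of -0.04 against -0.00 over all genes. Among those that rose, the cofactor Vgll3 went from 28.1 to 74.2 CPM (log2 fold change 1.40), Stk3, which encodes the kinase MST2, from 43.2 to 70.4 (0.70), the kinase Lats2 from 18.4 to 27.5 (0.58) and Wwtr1, which encodes the coactivator TAZ, from 94.1 to 138 (0.55). Among those that fell were Vgll4, a cofactor that competes with YAP, from 79.4 to 53.2 (-0.58), the kinase Map4k4 from 432 to 292 (-0.56) and the transcription factor Tead2 from 180 to 123 (-0.55). Tead4 was at 43.2 and 37.0 (-0.23, adjusted p = 0.0349), and it lost the call without KO replicate 1 or 2 or without WT replicate 1 or 3 (adjusted p up to 0.156).

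Of 17 YAP and TAZ target genes tested, 7 rose and 4 fell, beside the same 25.1% and 23.6% of all genes, with a median log2 fold change of 0.14. In the libraries titled KO, the matricellular genes Ccn2 and Ccn1 rose most of the list, from 27.4 to 189 CPM (log2 fold change 2.78 ± 0.07) and from 99.3 to 295 (1.57 ± 0.06), followed by the ankyrin repeat gene Ankrd1 from 17 to 40.1 (1.23) and by Lats2, which is on both lists (adjusted p between 4.18e-12 for Ccn2 and 6.55e-05 for Lats2, edgeR). Gadd45b fell from 65.6 to 45.2 (-0.54) and Arhgef17 from 290 to 212 (-0.46). Dock5 and Foxf2 were also called as lower, at -0.22 and -0.17. Dock5 lost the call without KO replicate 2 or any 1 WT library (adjusted p up to 0.146), and Foxf2 without KO replicate 1 or WT replicate 1 or 3 (up to 0.0903).

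Of 8 genes of the atypical protein kinase C and polarity group tested, 2 rose and 2 fell, which is near the shares of all genes. Prkci, an atypical protein kinase C, rose from 114 to 154 CPM (log2 fold change 0.44) and its partner Pard6a from 9.64 to 13.9 (0.53), while Pard6g fell from 31.4 to 24.9 (-0.34) and Scrib from 161 to 133 (-0.28). The non-muscle actomyosin genes belong to the cytoskeleton that Specc1l binds. Of 15 tested 12 rose and 1 fell, beside 25.1% of all genes called as higher and 23.6% as lower in KO, with a median log2 fold change of 0.31. The myosin light chain genes Myl9, Myl6 and Myl12a rose from 5.04 to 20.5, from 215 to 546 and from 110 to 199 CPM (log2 fold changes 2.02, 1.34 and 0.85), and the tropomyosin Tpm2 from 142 to 240 (0.75). Circle sums of the same genes were called in both directions. In the cytoplasm, 6 of 17 Hippo host genes tested were higher and 2 lower in KO, and of 10 actomyosin host genes 2 were higher and 3 lower, beside 25.4% of all host genes called as higher and 20.5% as lower. The lists were drawn up with earlier results of these data known, and their counts are a description.

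Across the 8 cytoplasmic and whole-cell libraries, the host genes whose summed circle reads followed Specc1 most closely were Rab22a, Rsrc1, Tusc3, Etnk1 and Stk39, with Pearson's r from 0.912 to 0.864 on log2 reads per 10000, over 823 host genes compared with a median r of 0.07. Among those nearest to Wwc1 were Ash1l, AW554918, Gm28539 and Atad1, with r from 0.976 to 0.913 and a median r of -0.04 over 824 host genes. The Wwc1 profile rests on 41 reads in all, of different circles in the cytoplasm and the whole cell. The values share libraries and library totals, and they are the highest of many, so they describe a likeness in these 8 libraries alone.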

How the data were processed

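Junction reads and gene counts came from the files as deposited. For circRNA-seq, the authors ran find_circ on GRCm38 (mm10) and deposited, for every circRNA listed, a count of the reads across its backsplice junction; their text speaks of TPM, but the values are whole-number counts, and circRNAs found in both replicates were merged, with no further filter given in the sources used here. For mRNA-seq, the authors deposited counts per gene from HISAT2 and featureCounts. A protocol in the labels mentions blood samples, while the source given is NIH/3T3 cells. The amount of RNase R differs between labels and paper.

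Starts were shifted by 1 base, after which 15698 of 16164 circRNAs with a single position began on an annotated exon edge (GENCODE vM21); 7 nuclear circRNAs with several positions were left out of the sums. Junction sequences were read from the GRCm38 genome. Gene sums added all circRNAs inside a gene's span. Single circRNAs, sums and genes were tested on the whole table with edgeR (version 4.0.16, R 4.3.3; glmQLFit, glmQLFTest, TMM), at least 10 reads over the libraries of a fit (edgeR's own filter for mRNA), Benjamini-Hochberg adjustment over all features and a threshold of 0.05. An unlisted circle entered as 0. The SE is the log2 fold change divided by the square root of F. DESeq2 (version 1.42.0), other scalings, no filter, a replicate block and leaving out each library were alternatives. Tests were checked on simulated counts, where they missed many changes. For host sums they recovered 16% of 2-fold and 74% of 4-fold changes in the cytoplasm, and 12% and 80% in the whole cell. For single circRNAs they recovered 41% of 4-fold changes in the cytoplasm and 47% in the whole cell. Changes were set only in sums that averaged at least 10 reads per library, more than Wwc1 had, and in single circRNAs above a lower floor. All circRNA counts were drawn with 1 fixed spread. Recovery for sums with as few reads as Wwc1 was thus not simulated. Intervals (95%) cover counting error only, since no molecular identifiers are named. Groups and replicate numbers came from sample titles. Python 3.11.15, scipy 1.17.1 and pandas 2.3.3 were used.

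Members and gene lists were chosen with earlier results of these data known. Named were the 5 circles of each gene with most reads, called circles, both paralogs, and up to 4 called genes per direction and list with the largest fold change, fibroblast and leukocyte lists being given by their sums. Circles outside that rule were named for completeness. Tead1, Pard3 and other listed symbols without a match were not analysed here, and some genes that the rule would name are not reported here.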

Additional observations from a re-analysis of the deposited data

Results flagged for a closer look

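For 1 circle and 1 gene sum, KO minus WT differed between cytoplasmic and whole-cell RNA in a test of that difference itself. KO stands for 1 edited line, so the test compares lines and does not show an effect of the knockout. For circSpecc1 8-11 the KO minus WT difference was higher in the cytoplasm by 3.90 ± 1.14 (SE) on the log2 scale (edgeR interaction term, adjusted p = 0.0309), from 16 WT and 19 KO reads in the cytoplasm and 11 WT and 1 KO reads in the whole cell. That call was lost with no scaling (adjusted p = 0.423), with DESeq2 (0.176) and with any 1 of 4 libraries left out, where the value ran from 2.90 to 6.29. For the Wwc1 sum it was higher by 5.92 ± 0.96 (adjusted p = 0.00193), from 3 WT and 20 KO reads in the cytoplasm and 16 WT and 2 KO reads in the whole cell, all of unlike circles. The cytoplasmic circle of Wwc1 met the rule of the lists only through KO, where it is high. Of its whole-cell circles, circWwc1 16-18 was listed through WT alone, where it is high. Groups of 2 or 3 libraries are too small to test for a library that stands apart.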

How the results depend on the processing

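Few reads limit every circle result. The summed Specc1 difference in whole-cell RNA passed the threshold with library totals in place of TMM (log2 fold change -0.93, edgeR adjusted p = 0.0428). With no scaling (-0.98, adjusted p = 0.177) and with DESeq2 (-0.91, 0.573) that sum missed the threshold. The cytoplasmic Wwc1 sum missed the threshold with no scaling (2.64, adjusted p = 0.0880) and DESeq2 (3.21, 0.0835). The whole-cell Wwc1 sum missed it with no scaling (-2.85, 0.122) and DESeq2 (-2.93, 0.573), and ranged from -2.90 to -2.68 with 1 of its 4 libraries left out. The Wwc1 difference between fractions ranged from 4.84 to 9.20 with 1 library left out, and Wwc1 mRNA from 0.067 to 0.29. Members called singly were 0 with no scaling and 0 to 3 with 1 library left out in the cytoplasm, 2 with library totals and 0 to 1 with 1 library left out in the whole cell, and, between fractions, 0 with no scaling, 0 with DESeq2 and 0 to 1 with 1 library left out. With 1 library left out, circSpecc1 8-12 ranged from -1.57 to 0.65 in the cytoplasm (0.15 and 0.07 without KO replicate 1 or 2), from -0.76 to 0.73 in the whole cell and from -1.24 to 0.88 between fractions (0.46, 0.10 and 0.88 where it turned). circSpecc1 4 ranged from -1.46 to 0.13 in the whole cell. Causes were not tested. The share of circSpecc1 8-12 differed by -16.1 to 25.7 points in the cytoplasm and 3.12 to 27.2 in the whole cell. Leaving 1 library in a group assumes that it varies like the others.

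Replicate numbers did not pair the libraries (correlations of deviations from -0.07 to 0.05). With a replicate block, the Specc1 sum in the whole cell was -0.99 (adjusted p = 0.0290), the Wwc1 sum in the cytoplasm 3.11 (0.0814), 2 members were called in the whole cell, and circSpecc1 8-12 was 0.13 between fractions.

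Over all features, calls among circRNAs fell from 4768 to 2039 with DESeq2, 2353 with no scaling and 0 without KO replicate 1 in the cytoplasm, ranged from 0 to 2003 around 280 in the whole cell, and fell from 1022 to 150 with DESeq2, 22 with no scaling and 0 without either KO whole-cell library between fractions. Calls among host genes were 1729, 135 with DESeq2 and 0 with the block in the cytoplasm, 286 with a range of 0 to 760 in the whole cell (2 without either KO library), and 752 against 142 with DESeq2 and 225 without KO whole-cell replicate 2 between fractions. No scaling moved the cytoplasmic median log2 fold change from -0.25 to -0.77 for circRNAs and from -0.03 to -0.52 for host genes. TMM factors taken before the filter were added after seeing the data. No value could be had for either gene from the nuclear lists.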
